A study of Homo sapiens with 32 samples.

Results

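ASS1, ASL, ARG2, OAT and AGMAT encode enzymes that make arginine or break it down, and their levels were followed in K-562 cells resistant to imatinib or nilotinib and in treatment-naive K-562 cells. The members are the array features that carry 1 of these 5 gene symbols. ASS1 was selected on its measured level, lower in all resistant lines than in naive cells, and the others were added as enzymes of the same metabolism. The comparison with naive cells therefore chose ASS1, and the members' differences from naive cells are given as a description with no test. Of the 5 genes, 4 had a named feature, 1 each, among the 14884 genes measured, and ARG2 was not analysed here.

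K-562 is an established human cell line from chronic myeloid leukemia in which the BCR-ABL1 fusion kinase, the target of both drugs, drives growth. There were 32 arrays in 8 sets of 4: low-imatinib lines 1 and 2, made resistant to imatinib at 0.5 µM, high-imatinib lines 1 and 2, made resistant to imatinib at 2 µM, nilotinib lines 1 and 2, made resistant to nilotinib at 0.1 µM, and the sets naive S and naive K. Drug doses were raised in steps until the cells were resistant, and the lines are the 2 biological replicates that the design names for each resistance, with 4 technical replicate arrays each. The letters S and K are not explained in the labels. The growth medium is described for every sample as free of both drugs, so whether a resistant line was in drug at harvest is unclear.

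As background, arginine is made from citrulline. Argininosuccinate synthase, encoded by ASS1, joins citrulline to aspartate, and argininosuccinate lyase, encoded by ASL, splits the product into arginine and fumarate. Cells with little ASS1 depend on arginine from the medium, and loss of ASS1 is known in several tumours, where it is the basis of arginine-depleting enzymes as a treatment. Arginases (ARG2 is the mitochondrial one) cut arginine into urea and ornithine, OAT encodes the ornithine aminotransferase that links ornithine to glutamate and proline, and AGMAT is named for agmatinase, which in bacteria turns agmatine, made from arginine by decarboxylation, into the polyamine putrescine.

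ASS1 and OAT were the members whose levels varied most, and the 250 bases before the start of each are shown from RefSeq (GRCh38.p14), 5′ to 3′ on the strand of the gene. The ASS1 window is chr9:130444457-130444706 on the plus strand, before a gene that spans chr9:130444707-130501274. ASS1 has 2 starts among the RefSeq windows, and the window of the most upstream start is shown. The window of the other start is not described here. The OAT window is chr10:124418924-124419173 on the minus strand, before a gene that spans chr10:124397303-124418923. Capitals mark GC boxes, the letters GGGCGG on either strand, to which SP1 and SP4 bind.
ASS1: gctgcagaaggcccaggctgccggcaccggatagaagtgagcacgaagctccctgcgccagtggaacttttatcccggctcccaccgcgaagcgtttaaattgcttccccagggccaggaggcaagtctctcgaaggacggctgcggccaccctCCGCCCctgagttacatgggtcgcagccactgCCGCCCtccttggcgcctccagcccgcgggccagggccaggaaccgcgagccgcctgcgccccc
OAT: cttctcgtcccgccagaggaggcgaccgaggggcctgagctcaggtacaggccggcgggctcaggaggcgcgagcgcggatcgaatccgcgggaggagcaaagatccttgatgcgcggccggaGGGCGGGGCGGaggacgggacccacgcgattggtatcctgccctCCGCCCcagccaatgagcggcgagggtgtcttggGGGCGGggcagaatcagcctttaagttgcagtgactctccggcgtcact
The ASS1 window holds 2 GC boxes and the OAT window holds 4, of which the pair written as a single run of capitals overlap by 1 base. A GC box is found in 42.6% of 35114 RefSeq promoter windows of this length. Neither window holds the E-box CACGTG, the letters bound by MYC and BHLHE40, which 6.35% of windows hold, or the core of the ATF4 element, TGATGNAA, which 3.14% hold. The ASL window, before chr7:66075819-66093576, has 4 GC boxes, and the AGMAT window, before chr1:15571699-15585051, has 0. These counts describe letters in a window and say nothing of binding.

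ASS1 was lower in every resistant line than in both naive sets. Values are levels on the deposited log2 scale, as the mean ± SD of the 4 arrays of a set, and each feature's levels are compared only with that feature's levels in other sets. ASS1 stood at 8.03 ± 0.17 in low-imatinib line 1 and 7.56 ± 0.12 in low-imatinib line 2. It was 8.05 ± 0.15 in high-imatinib line 1 and 8.00 ± 0.06 in high-imatinib line 2. In nilotinib line 1 it was 8.60 ± 0.10 and in nilotinib line 2 it was 7.84 ± 0.08, against 10.13 ± 0.19 in naive S and 9.72 ± 0.23 in naive K. No resistant array overlapped a naive one. The highest resistant array, of nilotinib line 1, read 8.71, against 9.41 for the lowest naive array, of naive K. The share of all genes that separate by single arrays was not computed. As in any bulk measurement, fewer cells that express a gene and less of its RNA per cell cannot be told apart.

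**Figure D1:**
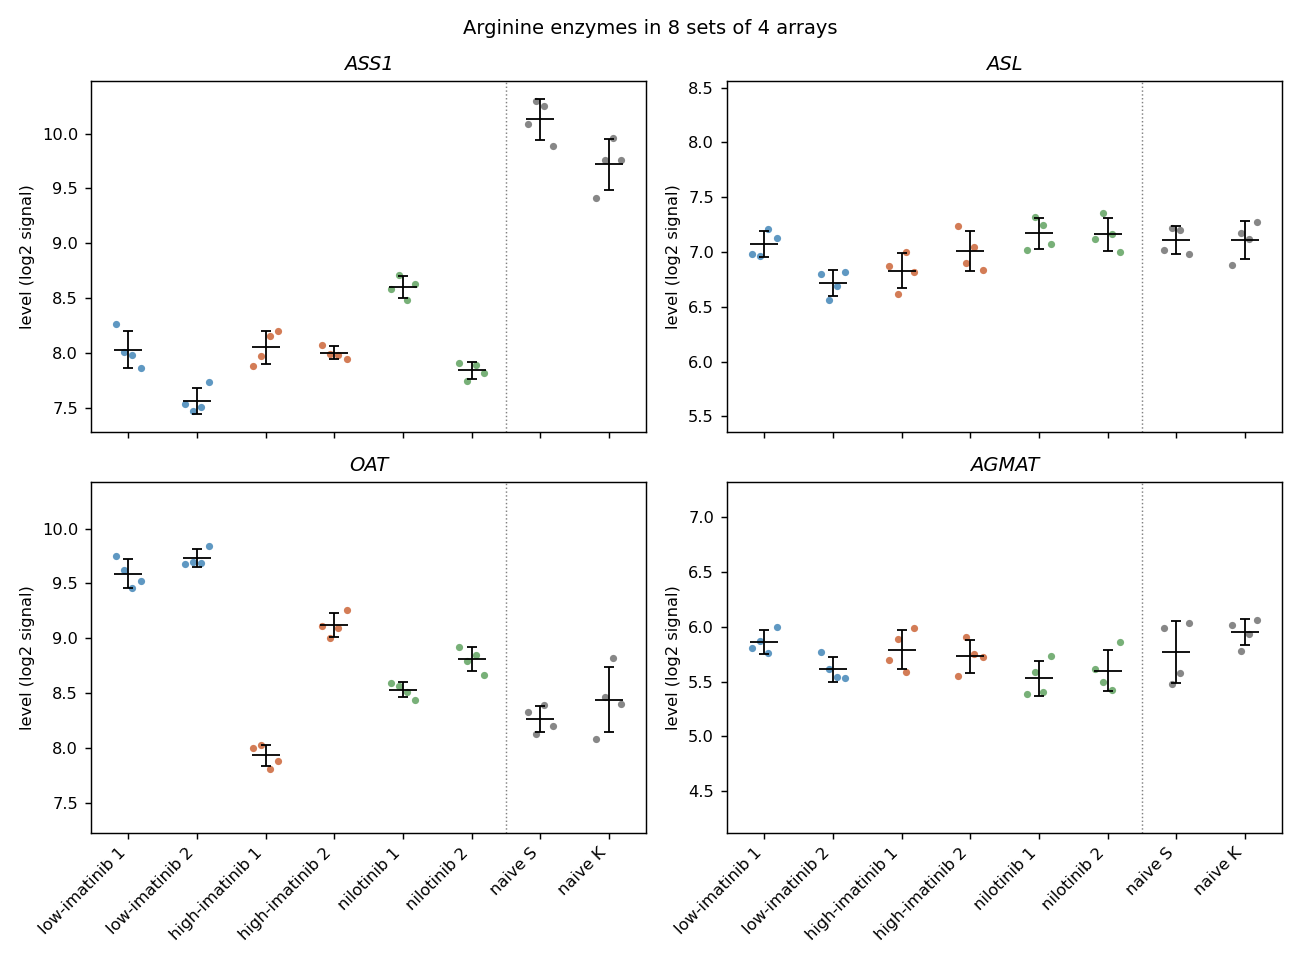
Levels of ASS1, ASL, OAT and AGMAT (log2 signal, vertical axis, the same height of scale in each panel) in the 8 sets. Points are single arrays, long bars set means and error bars the SD of 4 arrays, with naive S and K to the right of the dotted line. ASS1 separates the resistant sets, at 8.60 or less, from the naive sets, at 9.72 or more; OAT is spread among the resistant sets, and the resistant arrays of ASL and AGMAT as a whole overlap the naive ones, though some single sets do not.

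Relative to the mean of both naive sets, ASS1 was 3.74-fold lower in low-imatinib line 1 and 5.17-fold lower in low-imatinib line 2. The high-imatinib lines were 3.68-fold and 3.82-fold below naive, and the nilotinib lines 2.51-fold and 4.25-fold. In limma's fit to the 8 set means, the difference (log2, ± SE, n = 2 lines against 2 naive sets) was -2.14 ± 0.29 for the low-imatinib lines, -1.91 ± 0.29 for the high-imatinib lines and -1.71 ± 0.29 for the nilotinib lines. Over all 6 lines it was -1.92 ± 0.23, a 3.78-fold lower level. Of the 14884 genes, 14 had a lower difference than ASS1 over all 6 lines, 23 with low imatinib, 17 with high imatinib and 8 with nilotinib. These differences and ranks describe the contrast on which ASS1 was chosen and do not test it. Every line was below naive S and naive K in 15.9% of genes, so this pattern by itself is common on these arrays. RefSeq lists 14 pseudogenes of ASS1, and whether the ASS1 feature also reads RNA from them was not tested.

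The resistances were compared with each other because this contrast leaves out the naive sets on which ASS1 was chosen. ASS1 did not pass the test in any of the 3 comparisons (limma on set means, Benjamini-Hochberg adjusted p). The high-imatinib lines averaged 8.02 ± 0.04 and the low-imatinib lines 7.79 ± 0.33 (SD, n = 2 lines each), a difference of 0.23 (95% interval -0.45 to 0.91, adjusted p = 0.952). The nilotinib lines averaged 8.22 ± 0.54, which was 0.43 above the low-imatinib lines (-0.25 to 1.11, adjusted p = 0.797) and 0.20 above the high-imatinib lines (-0.48 to 0.88, adjusted p = 0.845). The intervals hold differences of up to 1.11 on the log2 scale. By limma, 0% of all genes passed in each of the 3 comparisons, while 722 to 1028 genes had an unadjusted p under 0.05.

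The nilotinib lines and the low-imatinib lines differed in ASS1 beyond the spread of their technical arrays, and the high-imatinib lines did not pass this test. Nilotinib line 1 was 0.76 ± 0.11 (log2, 1.69-fold) above line 2 (limma on 32 arrays, adjusted p = 1.15e-06). Low-imatinib line 1 was 0.47 ± 0.11 above line 2 (adjusted p = 0.00207), and the high-imatinib lines differed by 0.06 (adjusted p = 0.759). The naive sets differed too, by 0.41 ± 0.11 for S minus K (adjusted p = 0.0122), a call lost when array 1 or 2 of every set was left out (adjusted p over all alternatives from 0.00605 to 0.126). Such tests set a difference against the spread of technical replicates alone. They called 27.6% of all genes between the nilotinib lines, 18.7% between the low-imatinib lines, 33% between the high-imatinib lines and 12.4% between naive S and K. In order of level, naive S and K overlapped in their arrays, nilotinib line 1 stood clear of naive K above it and high-imatinib line 1 below it, and high-imatinib line 1, low-imatinib line 1 and high-imatinib line 2 overlapped. Nilotinib line 2 and then low-imatinib line 2 were lowest in mean, each with no overlap of arrays with the set next to it in that order. Nilotinib line 2, up to 7.91, did overlap low-imatinib line 1, from 7.86, and high-imatinib line 1, from 7.88.

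ASL, whose product acts on what ASS1 makes, did not separate resistant from naive sets. Its means were 7.07 ± 0.12 and 6.72 ± 0.12 for low-imatinib lines 1 and 2, 6.83 ± 0.16 and 7.01 ± 0.18 in high-imatinib lines 1 and 2, and 7.17 ± 0.14 and 7.16 ± 0.15 in nilotinib lines 1 and 2. Naive S and K stood at 7.11 ± 0.13 and 7.11 ± 0.17. The resistant arrays ran from 6.56 to 7.36 and the naive arrays from 6.88 to 7.27, so they overlapped. The span from the lowest to the highest set mean was 0.45 for ASL, wider than in 21.3% of genes, while it was 2.57 for ASS1, wider than in 98.4%. Over all 6 lines ASL differed from naive by -0.12 ± 0.13, and by -0.31 with quantile normalization. Between resistances its differences were 0.27 for nilotinib minus low-imatinib (95% interval -0.10 to 0.64, adjusted p = 0.782), 0.24 for nilotinib minus high-imatinib (-0.12 to 0.61, adjusted p = 0.747) and 0.02 for high-imatinib minus low-imatinib (adjusted p = 0.990). Low-imatinib line 1 was 0.35 ± 0.11 above line 2 against technical spread (adjusted p = 0.0200), a call lost when array 2, 3 or 4 of every set was left out (adjusted p over all alternatives from 0.0110 to 0.172).

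OAT, the enzyme that takes up ornithine, varied among the resistant lines and lay on both sides of the naive sets. It stood at 9.59 ± 0.13 and 9.73 ± 0.08 in low-imatinib lines 1 and 2, at 7.93 ± 0.10 and 9.12 ± 0.11 in high-imatinib lines 1 and 2, and at 8.53 ± 0.07 and 8.81 ± 0.11 in nilotinib lines 1 and 2. Naive S had 8.26 ± 0.12 and naive K 8.44 ± 0.30. Thus 5 lines lay above both naive sets and high-imatinib line 1 lay below them. All arrays of the low-imatinib lines, from 9.46 up, exceeded the highest naive array at 8.82, and the share of all genes that do so was not computed. The difference from naive was 1.31 ± 0.35 for the low-imatinib lines (2.48-fold higher), 0.17 ± 0.35 for the high-imatinib lines and 0.32 ± 0.35 for the nilotinib lines. With quantile normalization these 3 differences were 0.96, -0.14 and -0.13, so the sign held in the low-imatinib lines only. The span of the OAT set means, 1.80, was wider than in 95.4% of genes.

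Within the high-imatinib resistance, the lines differed in OAT. The fitted difference of line 1 minus line 2 was -1.18 ± 0.11 (2.27-fold lower in line 1, limma on 32 arrays, adjusted p = 6.57e-11). By the same fit the lines differed by -0.14 in the low-imatinib pair (adjusted p = 0.422) and by -0.28 in the nilotinib pair (adjusted p = 0.0518). The nilotinib pair did pass with quantile normalization (26.4% of all genes passed) and without dim genes (39.2%). Over all alternatives its difference ran from -0.36 to -0.26 and its adjusted p from 0.000508 to 0.148. Between resistances, OAT averaged 8.52 ± 0.84 in the high-imatinib and 9.66 ± 0.10 in the low-imatinib lines, a difference of -1.13 ± 0.35 (95% interval -1.96 to -0.31) that did not pass after adjustment (limma across all genes, unadjusted 0.0143, adjusted p = 0.934). The nilotinib lines averaged 8.67 ± 0.20, a difference of -0.99 from the low-imatinib lines (-1.82 to -0.16, limma, unadjusted 0.0255, adjusted p = 0.675) and of 0.14 from the high-imatinib lines (-0.68 to 0.97, adjusted p = 0.912). Without high-imatinib line 2 the difference between the high-imatinib and low-imatinib lines was -1.73 (adjusted p = 0.0198, where 1.81% of all genes passed). That fit has 1 high-imatinib line, the one with the lower OAT level, and takes its spread from the other groups. With the 32 arrays fitted and the set as a random block, OAT also passed for high-imatinib minus low-imatinib (adjusted p = 0.00157, where 2.77% of all genes passed) and nilotinib minus low-imatinib (adjusted p = 0.00308, 3.7% of all genes). That fit applies 1 within-set correlation of arrays, 0.44, to every gene. Where lines of a resistance differ far beyond array spread, as in OAT of the high-imatinib pair, its p-values can be too small. This limit holds wherever that fit is used. Over all alternatives the adjusted p ran up to 1 for high-imatinib minus low-imatinib and to 0.991 for nilotinib minus low-imatinib.

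AGMAT had set means from 5.53 in nilotinib line 1 to 5.86 in low-imatinib line 1, against 5.77 ± 0.28 in naive S and 5.95 ± 0.12 in naive K. Its resistant and naive arrays overlapped, and 4 of the 6 lines lay below both naive sets. AGMAT was among the dimmest 40% of genes, and the background of the arrays was not measured here. Over all 6 lines it differed from naive by -0.17 ± 0.12 (0.05 with the technical axis described further on taken out), and no comparison of resistances passed (adjusted p between 0.751 and 0.988).

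Across the 8 set means, Pearson's r of ASS1 was 0.49 with ASL, -0.57 with OAT and 0.44 with AGMAT. Over the 6 resistant lines alone it was 0.622 with ASL, -0.529 with OAT and -0.187 with AGMAT. The points share arrays, preparation and normalization, and these values are given as a description.

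Genes around the members were described from 6 lists: the rest of the urea cycle and ornithine transport, proline and glutamate, polyamines, other users of arginine, arginine carriers and sensing, and aspartate and fumarate. Of 90 listed genes, 53 were measured, from 2 of 12 carriers and sensors to 20 of 20 polyamine genes. By limma over all genes, 2 of the 53 (3.77%) passed for all resistant lines against naive, both higher, where 3.72% of all genes passed, so the share is near the background. None of the 53 passed for the low-imatinib lines against naive (0% of all genes, 3215 at an unadjusted p under 0.05), the high-imatinib lines (0%, 2266 unadjusted) or the nilotinib lines (0.443%). The 32-array fit with the set as a random block called 18 of the 53 (34%) for the low-imatinib lines, where it called 18% of all genes. It called 7 (13.2%, against 11.3% of all genes) for the high-imatinib lines, 14 (26.4%, against 24.8%) for the nilotinib lines and 16 (30.2%, against 24.6%) for all lines. Every line was above naive S and naive K in 10 of the 53 genes (18.9%, against 17% of all genes) and below them in 5 (9.43%, against 15.9%). The median difference of the 53 over all resistant lines was 0.17, against -0.03 over all genes, and it was 0.00 after quantile normalization. With the dimmest 40% of genes left out, the medians were 0.24 for the list genes that remained and 0.20 for all genes.

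**Figure D2:**
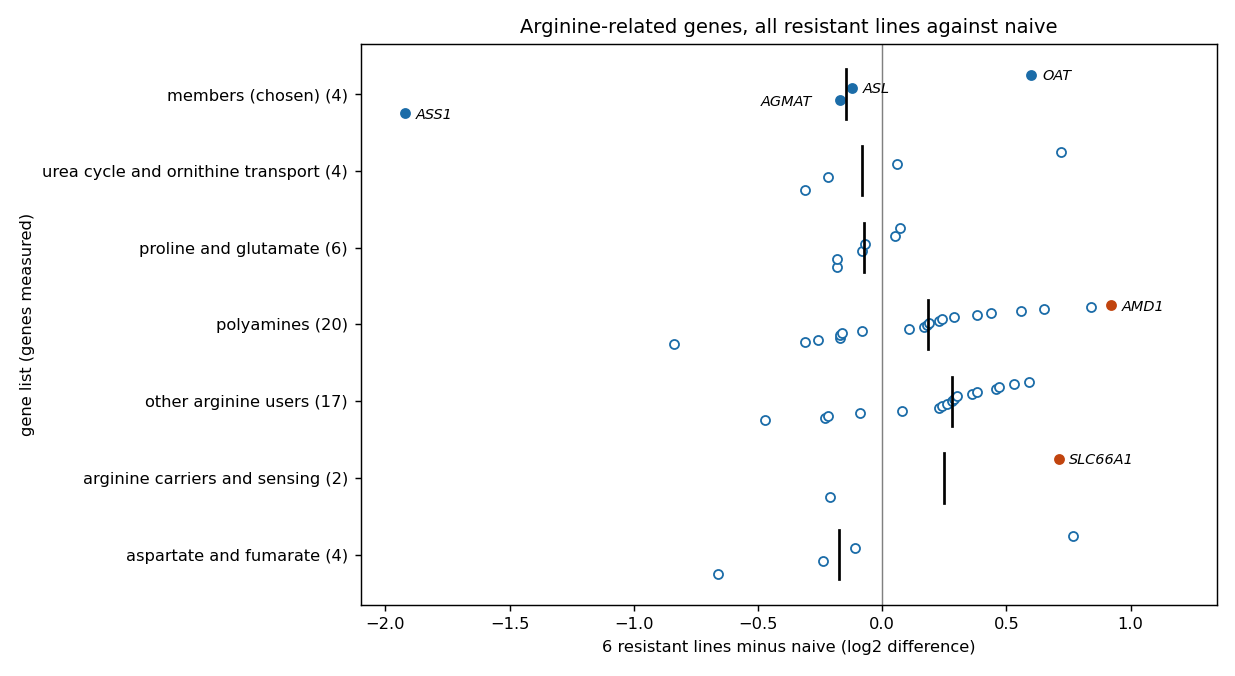
Difference of the 6 resistant lines from naive (log2, horizontal axis) for the 4 members measured and the 53 genes of the 6 lists, with the number of genes measured in brackets. Filled blue points are the members, orange points genes that passed (adjusted p under 0.05), open points other list genes, and black bars medians. ASS1, at -1.92, lies lower than every list gene, and AMD1 and SLC66A1 are the list genes that passed.

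AMD1, which encodes the adenosylmethionine decarboxylase that supplies aminopropyl groups for spermidine and spermine, rose in the resistant lines. Its level was 10.18 and 9.83 in low-imatinib lines 1 and 2, 9.60 and 9.79 in high-imatinib lines 1 and 2 and 10.06 and 9.84 in nilotinib lines 1 and 2, against 9.25 in naive S and 8.68 in naive K. The groups did not overlap in their set means, and the difference was 0.92 ± 0.18 (1.89-fold, limma adjusted p = 0.0483). SLC66A1, a lysosomal exporter of cationic amino acids that include arginine, rose by 0.71 ± 0.13 (1.63-fold, adjusted p = 0.0400). Its set means ran from 7.50 to 8.11 in the resistant lines, against 6.99 in naive S and 7.05 in naive K. Both calls were lost after quantile normalization (AMD1 adjusted p = 0.113, SLC66A1 adjusted p = 0.0892), without naive S, naive K, low-imatinib line 1, low-imatinib line 2 or nilotinib line 1 (adjusted p from 0.0665 to 0.295), and with every array feature tested (0.0723 and 0.0643). AMD1 lost its call also without nilotinib line 2 (adjusted p = 0.0536) and with medians of arrays (0.0513), and its difference was 0.63 without naive K.

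A technical axis, the main direction in which arrays of the same set differ, was not level across groups. Its score was 6.09 for line 1 and 5.69 for line 2 of low imatinib, -2.13 and 2.73 for high imatinib and 21.19 and 12.28 for nilotinib, against -20.76 in naive S and -25.09 in naive K. Both naive sets scored below every resistant line. Taking the axis out therefore also removes any difference of resistant from naive cells that lies along it. Technical and resistance differences along the axis cannot be told apart here. With this axis taken out, the ASS1 difference over all lines was -2.16. The OAT difference for the low-imatinib lines was then 1.02, AMD1 stood at 0.58 (adjusted p = 0.233) and SLC66A1 at 0.49 (adjusted p = 0.204).

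Polyamines are made from ornithine, so their genes lie downstream of arginase. Of the 20 measured, 1 passed, 13 had a difference above 0 and 7 below 0, and the median was 0.18. ODC1, the ornithine decarboxylase that makes putrescine, differed by 0.65 ± 0.24 (adjusted p = 0.135). OAZ2, an antizyme that sends ornithine decarboxylase to the proteasome, differed by 0.84 ± 0.31 (adjusted p = 0.130), with all 6 lines, from 6.15 to 7.18, above naive S at 5.74 and naive K at 5.75. SAT1, the acetyltransferase of polyamine breakdown, differed by -0.84 ± 0.44 (adjusted p = 0.237).

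In the urea cycle list, where 4 of 8 genes were measured and none passed, SLC25A15 and NAGS differed most. SLC25A15, the mitochondrial ornithine carrier, had 6.02 to 6.96 in the resistant lines, against 6.0 in naive S and 5.85 in naive K (difference 0.72 ± 0.21, adjusted p = 0.0865). NAGS, which makes the activator of carbamoyl phosphate synthetase, had 6.33 to 6.63 in the resistant lines, against 6.80 in naive S and 6.79 in naive K (-0.31 ± 0.10, adjusted p = 0.103). In the proline and glutamate list none of 6 passed, and the 2 with the largest differences were GLUL, the glutamine synthetase, at -0.18 ± 0.28, and PRODH, the proline dehydrogenase, at -0.18 ± 0.12.

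Among the other users of arginine, none of 17 passed, 13 had a difference above 0 and the median was 0.28. PRMT7, an arginine methyltransferase, differed by 0.59 ± 0.20 (adjusted p = 0.113) and ATE1, which joins arginine to protein ends, by 0.53 ± 0.16 (adjusted p = 0.0920). CASTOR1, the cytosolic arginine sensor upstream of mTORC1, was measured beside SLC66A1 and stood between 6.98 and 7.11 in the resistant lines, against 7.33 in naive S and 7.25 in naive K (-0.21 ± 0.10, adjusted p = 0.193). ASS1 consumes aspartate, and in that list none of 4 passed. ASNS, the asparagine synthetase, which also uses aspartate, differed by -0.66 ± 0.24 (adjusted p = 0.132), and ADSL, an adenylosuccinate lyase that releases fumarate, by 0.77 ± 0.42 (adjusted p = 0.251), with 5 lines above the naive sets and high-imatinib line 1 below them.

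Of 7 reported regulators of ASS1, 4 were measured and none passed. MYC differed by 0.19 ± 0.26 (limma adjusted p = 0.635) and SP1 by 0.19 ± 0.13 (adjusted p = 0.353). Both differences were below 0 after quantile normalization (-0.12 and -0.18) and with the technical axis taken out (-0.21 and -0.19). SP4 differed by 0.17 and ATF4 by -0.12.

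The measured genes beside ASS1 on chromosome 9 did not pass the test that sets resistant lines against naive. Of the 10 genes on each side, 7 had a named feature, and their differences over all resistant lines ran from -0.19 for PRDM12, 7 genes away, to 0.58 ± 0.13 for FUBP3, 3 genes away (adjusted p = 0.0547). None of the 7 passed. ABL1, of the BCR-ABL1 fusion, lies 9 genes from ASS1 and had no named feature. The nearest gene measured, LOC100272217, differed by 0.22.

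**Figure D3:**
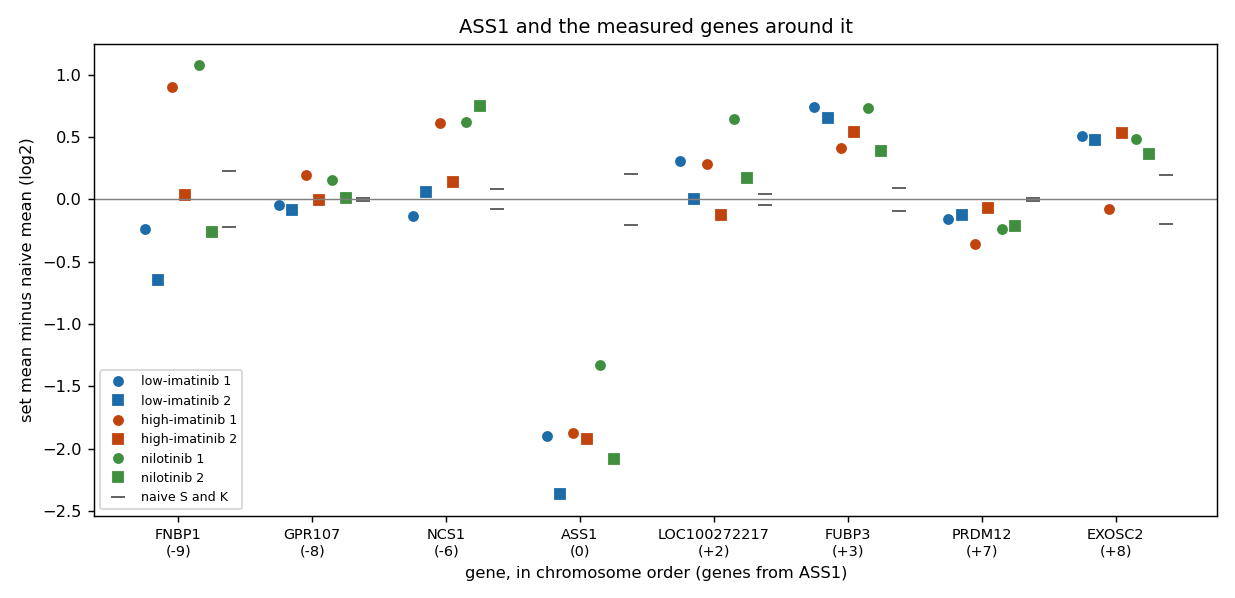
Each line's set mean minus the mean of naive S and K (log2, vertical axis) for ASS1 and the 7 measured genes among the 10 on each side, in chromosome order, with the number of genes from ASS1 in brackets. Circles are lines 1 and squares lines 2, coloured by resistance, and dashes show naive S and K. All 6 ASS1 points lie at -1.33 or lower, and the points of the other genes lie higher.

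The genes whose pattern was most like that of ASS1 were found among 2937 genes that span at least 1 log2 unit and lie above the dimmest 40%. Over the 8 set means, Pearson's r with ASS1 was 0.955 for FOXA2, a forkhead transcription factor, 0.953 for NAV2, 0.953 for STC2, a secreted stanniocalcin, 0.951 for NMU, the neuropeptide neuromedin U, 0.947 for SMIM3 and 0.944 for AMOTL1. The lowest values were -0.970 for SMC4, a condensin subunit, -0.969 for CCDC69 and -0.968 for TMEM38B. In all 9 the resistant and naive set means do not overlap, and this step enters r. Over the 6 resistant lines alone r was 0.765 for NMU, 0.728 for FOXA2, 0.309 for NAV2 and -0.794 for SMC4. NMU had 8.91 in nilotinib line 1 and 6.49 in nilotinib line 2, the pair in which ASS1 also differed, against 10.83 in both naive sets.

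**Figure D4:**
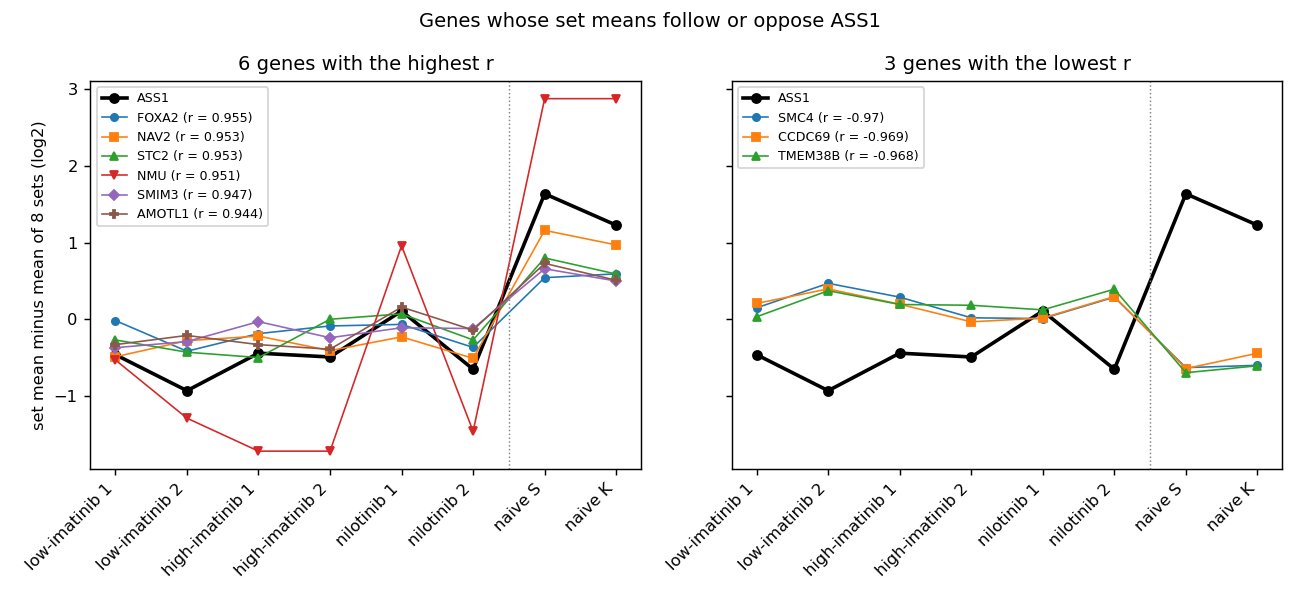
Set mean minus the mean of the 8 sets (log2, vertical axis) for ASS1 in black and, on the left, the 6 genes with the highest and, on the right, the 3 with the lowest Pearson's r with ASS1. Naive S and K are right of the dotted line. Among the resistant sets ASS1, NMU, STC2 and AMOTL1 are highest in nilotinib line 1.

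K-562 identity was checked with erythroleukemia markers, of which 5 of 11 were measured and 1 passed. For all resistant lines against naive, the comparison used for these markers, 3.72% of all genes passed. GATA1, an erythroid transcription factor, had set means from 9.12 to 9.71. TAL1, another, rose by 1.12 ± 0.19 (adjusted p = 0.0380) in the resistant lines, where it had 7.07 to 7.89, against 6.40 in naive S and 6.58 in naive K. The others differed by 0.67 for EPOR (adjusted p = 0.113), 0.65 for KLF1 (adjusted p = 0.174), 0.07 for GATA1 (adjusted p = 0.816) and -0.12 for LMO2 (adjusted p = 0.802). Of 5 hepatocyte markers, listed because hepatocytes express ASS1 strongly, 4 were measured and 1 passed: ALB fell by 0.51 ± 0.10 (adjusted p = 0.0484), with 5.53 to 5.80 in the resistant lines, against 6.15 in naive S and 6.18 in naive K. The other 3 differed by -0.39 for TTR (adjusted p = 0.146), -0.15 for APOA1 (adjusted p = 0.437) and -0.09 for APOB (adjusted p = 0.601). LUM, the fibroblast marker measured, had 4.36 to 4.77, and 0 of 5 lymphocyte markers were measured. ALB levels lay near the medians of the arrays, which ran from 5.85 to 6.11. The TAL1 and ALB calls were not rerun under the alternatives. With the technical axis taken out, 0.0806% of all genes passed for all resistant lines against naive. Whether these markers have a part in the ASS1 result was not tested.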

How the data were processed

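The deposited values are summarised signals per array feature, per the labels from total RNA (100 ng per array, GeneChip WT PLUS kit). They read as log2 values, from 1.24 to 14.2, but no label states the base of the log2 scale that the authors deposited. Transcriptome Analysis Console 4.0 is named in the submitters' processing notes, and how it normalized the arrays is not given in the sources used. Of 53617 features, 16098 carried 1 gene symbol, matched by gene identifier to RefSeq GRCh38.p14. For the 779 genes with several features the brightest on average was kept, which left 14884 genes.

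Arrays were averaged to 8 set means, and limma 3.58.1 (R 4.3.3) was fitted with 1 mean per group. P-values were adjusted by Benjamini-Hochberg within each comparison, with a threshold of 0.05. Sets within a group were compared by limma on the 32 arrays, whose technical replication makes those p-values a measure of technical spread. Errors are standard errors from limma unless called SD, and intervals are at 95%. The number of sets, 2 per group, limits the precision of comparisons between groups. Genes named are the members, list genes that passed, the 2 genes per list with the largest difference over all resistant lines (ODC1, SAT1, SP4 and ATF4 were added after their values were seen), 6 genes most and 3 least like ASS1, and its measured neighbours. The marker genes named were also chosen after their values were seen. The members and lists were chosen with earlier results of these data known. Alternatives covered normalization, summary, filter, technical axis, features, groups fitted, random block, left-out sets and replicate block.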

Additional observations from a re-analysis of the deposited data

Results flagged for a closer look

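In low-imatinib line 2, the highest OAT array read 9.84, apart from the other 3 arrays of that set, by a Dixon test at the 95% level. The test was made for each of 4 genes in each of 8 sets, and of these 32 tests 1 stood out, where chance gives about 5%. In set means, ASL lay below both naive sets in all low-imatinib and high-imatinib lines and above both in the nilotinib lines. The span between the highest and the lowest set mean was 0.45, and the share of all genes with this pattern was not computed. Against the naive mean, low-imatinib line 1 stood at -0.04, nilotinib line 1 at 0.06 and nilotinib line 2 at 0.05. The SD of the arrays in these lines ran from 0.12 to 0.15. The means of naive S and naive K differ by 0.01. The difference between the resistances did not pass (limma adjusted p = 0.782 for nilotinib minus low-imatinib and 0.747 for nilotinib minus high-imatinib). With quantile normalization ASL was below naive in the nilotinib lines too, at -0.20.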

How the results depend on the processing

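The ASS1 difference from naive kept its direction under every alternative run: -2.18 to -1.71 over all lines, -2.38 to -1.90 for low-imatinib, -2.12 to -1.70 for high-imatinib and -2.09 to -1.33 for nilotinib lines, the last pair being also its range when 1 set is left out. That contrast chose ASS1, so these ranges are a description. OAT minus naive in the high-imatinib lines was 0.76 without line 1 and -0.42 without line 2. The count of list genes that passed against naive (2 of 53 over all lines, with the share of all genes that passed in brackets) was 1 with quantile normalization (2.43%), 1 with medians of arrays (3.18%), 0 with the technical axis out (0.0806%), 0 with every feature (0.0298%), 16 with the random block (24.6%) and 0 to 8 with 1 set left out (0% to 11.7%). For low-imatinib it was 13 with only the compared groups fitted (13.4%), 18 with the random block (18%) and 0 to 3 with 1 set left out (0% to 4.74%). For nilotinib it was 14 with the random block (24.8%) and 0 to 2 with 1 set left out (0% to 7.98%), and for high-imatinib 7 with the random block (11.3%). Members that passed between resistances numbered 1 with the random block for high-imatinib minus low-imatinib (2.77%; 0 to 1 with 1 set left out, 0% to 1.81%) and 1 for nilotinib minus low-imatinib (3.7%). Between sets, the count was 2 for the nilotinib lines with quantile normalization (26.4%) or without dim genes (39.2%), 2 for naive S minus K with quantile normalization (20.1%), and, with 1 array of each set left out, 1 to 2 for the low-imatinib lines (12.5% to 15.7%) and 0 to 1 for naive S minus K (3.91% to 10.7%). Leaving out a set leaves its group with 1 set, assumed to vary like the others. AGMAT gave no value without dim genes.

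None of the differences that changed sign had passed. With quantile normalization MYC was -0.12, SP1 -0.18, ASL -0.07 between the nilotinib lines and 0.01 between the naive sets. With the technical axis out MYC was -0.21, SP1 -0.19, PRODH 0.07, AGMAT -0.01 for high-imatinib minus low-imatinib and OAT -0.02 for nilotinib minus high-imatinib. With a set or array left out, GLUL ran from -0.38 to 0.02 and MYC from -0.20 to 0.58 against naive. For high-imatinib minus low-imatinib, ASS1 ran from 0.00 to 0.46, ASL from -0.15 to 0.20 and AGMAT from -0.09 to 0.15. For nilotinib minus high-imatinib, ASS1 ran from -0.18 to 0.58 and OAT from -0.45 to 0.74. Line 1 minus line 2 ran from -0.02 to 0.05 for ASL (nilotinib) and from -0.01 to 0.14 for both ASS1 and AGMAT (high-imatinib), and naive S minus K from -0.05 to 0.09 for ASL. The cause was not tested. The median of all genes over all lines moved to 0.20 without dim genes, where values are given as they stand.

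The differences of line 1 from line 2 correlated at 0.14, 0.19 and -0.20 between resistances. These values cannot tell whether lines of the same number share a derivation, which was not tested. With the line number as a replicate block, ASS1 for high-imatinib minus low-imatinib was 0.23 (adjusted p = 0.932) and 0 members passed in each of the 3 comparisons.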
